A study of Mus musculus with 4 samples.

Results

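The genes described here are 33 immediate early and heat shock genes, taken as a fixed list of symbols from the 31053 genes of the deposited matrices, and read in marker-gated cell types of the mouse aortic arch. Levels are given in CPM, the UMIs of a gene per 1000000 UMIs of the same cells. All 33 symbols were found. They comprised 9 bZIP transcription factors (Fos, Fosb, Fosl1, Fosl2, Jun, Junb, Jund, Atf3 and Maff), 9 other transcription factors (Egr1, Egr2, Egr3, Klf2, Klf4, Klf6, Nr4a1, Nr4a2 and Myc), 7 feedback and other early genes (Dusp1, Zfp36, Socs3, Btg2, Ier2, Ier3 and Ier5) and 8 heat shock genes (Hspa1a, Hspa1b, Hsp90aa1, Hspa8, Dnajb1, Hspb1, Hsph1 and Hspe1). The first 3 groups, 25 genes, are called the early genes below.

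Immediate early genes are transcribed within minutes of a growth factor, calcium, stretch or stress signal, from transcription factors already present in the cell. Their transcripts are short-lived, and several of their products (the phosphatase Dusp1, the mRNA-decay factor Zfp36, the cytokine signalling inhibitor Socs3) switch the signal off again. Heat shock genes encode chaperones and co-chaperones that are induced by heat shock factor when proteins misfold, and both sets are known to rise in cells released from tissue by warm enzymatic digestion.

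The study asked what Nrf2 in Cdh5-expressing cells does in atherosclerotic aorta, with single-cell RNA-seq of aortic arches with their main branches and perivascular tissue. The male mice descended from C57BL/6-Nfe2l2tm1.1Sred/SbisJ animals, whose Nrf2 gene is floxed, and the Cre line B6;129-Tg(Cdh5-cre)1Spe/J, and were 3 months old at the start. Mice of both genotypes, labelled Nrf2Cdh5Lox (floxed controls, here Lox) and Nrf2Cdh5tKO (here tKO-labelled), got either 1 tail vein injection and high-fat diet for 21 weeks (atherosclerotic) or saline and standard diet (normocholesterolemic). Each of the 4 conditions was 1 pool and 1 library, of 4 mice each for the normocholesterolemic and 3 mice each for the atherosclerotic pools. The Cdh5 promoter drives Cre in endothelium and also in part of the hematopoietic cells, so leukocytes can be recombined too. All 4 pools shared the same digestion, with Multi Tissue Dissociation Kit 2 for 30 min at body temperature, before red cell lysis and sorting of DAPI-negative cells. No undigested sample was measured, so transcripts present in the tissue and transcripts made during digestion cannot be told apart in any value below.

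The libraries held 12276546 to 98754487 UMIs, and 14148 of 15599 barcodes were kept, of which 7890, 2972, 1020 and 2266 came from the Lox normocholesterolemic, tKO-labelled normocholesterolemic, Lox atherosclerotic and tKO-labelled atherosclerotic libraries. Values of the 4 libraries are given in this order throughout. The libraries shared between 1 and 7 barcodes a pair. In 7 classes with at least 10 cells in every library there were 8048 fibroblast-like, 1479 smooth muscle-like, 1330 macrophage-like, 501 thymocyte-like, 369 T cell-like, 193 B cell-like and 162 endothelial-like cells, and 1741 cells stayed without a class. Levels, ranges and orders below refer to these 7 classes. Every class carried its own markers (6 to 8 of 8 with a UMI in at least 50% of its cells). Nfe2l2, the gene that encodes Nrf2, stood at 190.3 (148 to 241), 378 (308 to 459.7), 178 (124 to 247) and 362 (276 to 465) CPM (95% Poisson interval) in endothelial-like cells, so it was higher in the 2 libraries labelled tKO. These counts come from 3′ libraries and are summed per gene. Reads over the deleted exon were not separated from the others, so the values do not show whether it was lost.

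With 1 library per condition, differences between conditions have no replicate check. Intervals on them cover counting error only. Differences between cell classes were read within a library and tested over the 4 libraries with edgeR's quasi-likelihood test, with Benjamini-Hochberg adjustment over 11333 genes tested. Whether the pools were processed on separate days is not given in the sources used here.

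The promoter sequences below show elements found near the starts of heat shock and early genes. RefSeq (GRCm38.p6) gave start sites for 26 of the 33 genes, and Fosl1, Egr1, Egr3, Ier2, Hsp90aa1, Hspa8 and Myc were not listed. In the 250 bases before a start site, pairs of inverted heat shock units were searched as GAANNTTC and TTCNNGAA, which can overlap each other, together with the cAMP response element TGACGTCA, the AP-1 site TGANTCA and the CArG box, which serum response factor binds. All of these read the same on both strands. Hspa1a and Hspa1b, the inducible Hsp70 pair, and Hspb1, the small heat shock protein Hsp27, are shown first because they rose most in vessel wall cells. Jun and Fos, the partners in AP-1, follow. Capitals mark a match to any of the searched letters.

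Hspa1a, chr17:34972157-34972406, minus strand: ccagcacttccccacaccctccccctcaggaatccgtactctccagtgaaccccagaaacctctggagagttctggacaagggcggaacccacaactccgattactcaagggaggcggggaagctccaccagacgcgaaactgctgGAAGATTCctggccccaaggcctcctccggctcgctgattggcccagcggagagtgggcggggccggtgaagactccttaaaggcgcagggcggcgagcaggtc
Hspa1b, chr17:34959239-34959488, minus strand: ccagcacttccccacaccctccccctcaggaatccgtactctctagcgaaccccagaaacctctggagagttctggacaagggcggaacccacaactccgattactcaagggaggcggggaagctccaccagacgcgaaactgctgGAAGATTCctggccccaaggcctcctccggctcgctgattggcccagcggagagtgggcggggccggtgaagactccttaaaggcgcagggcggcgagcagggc
Hspb1, chr5:135887669-135887918, plus strand: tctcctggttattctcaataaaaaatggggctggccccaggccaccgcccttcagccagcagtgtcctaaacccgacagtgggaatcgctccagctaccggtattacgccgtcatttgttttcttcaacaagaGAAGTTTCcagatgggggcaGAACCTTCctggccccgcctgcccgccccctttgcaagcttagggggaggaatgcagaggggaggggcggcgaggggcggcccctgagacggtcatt
Jun, chr4:95052223-95052472, minus strand: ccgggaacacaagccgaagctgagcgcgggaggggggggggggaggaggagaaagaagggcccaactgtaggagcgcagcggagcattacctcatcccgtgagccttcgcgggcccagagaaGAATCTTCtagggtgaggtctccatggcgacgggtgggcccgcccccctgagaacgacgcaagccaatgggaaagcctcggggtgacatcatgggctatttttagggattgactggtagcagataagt
Fos, chr12:85473640-85473889, plus strand: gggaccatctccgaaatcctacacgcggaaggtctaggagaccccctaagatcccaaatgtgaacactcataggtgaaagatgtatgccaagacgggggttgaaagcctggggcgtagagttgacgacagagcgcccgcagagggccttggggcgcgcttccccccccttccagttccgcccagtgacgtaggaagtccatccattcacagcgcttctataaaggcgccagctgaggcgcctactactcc

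A heat shock pair was found for 5 of the 6 listed heat shock genes (Hspa1a, Hspa1b, Hspb1, Hsph1 and Hspe1, with no match for Dnajb1) and for 3 of the 20 listed early genes (Jun, Fosl2 and Egr2), against 14.5% of all 27025 genes. In Hspa1a and Hspa1b it began at base -104 from the start site, and in Hspb1 at -117 and -97. The cAMP response element was found for Dusp1, Btg2 and Maff (1.77% of all genes) and the CArG box for Egr2 and Zfp36 (1.62%). The AP-1 site was in no window of the 26 genes and in 7.82% of all genes. These matches are a description of the letters in a window and not of binding. Hspa1a (chr17:34969190-34972156, minus strand) and Hspa1b (chr17:34956436-34959238, minus strand) are single-exon genes. Their promoter windows were identical at 247 of 250 bases and their coding sequences at 1915 of 1926 aligned bases, while their annotated 3′ UTRs were identical at 391 of 813 aligned bases. How reads from the near-identical coding part were assigned was not examined, so the separate values of both copies are uncertain.

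The early genes took 24552 ± 526 CPM in fibroblast-like cells (mean ± SD, n = 4 libraries), 22646 ± 3740.2 in macrophage-like, 19784 ± 5207 in endothelial-like and 19158 ± 3629 in smooth muscle-like cells. They took 11482 ± 2061 in B cell-like, 9606 ± 967 in T cell-like and 3904 ± 403 in thymocyte-like cells. Neighbours among the first 4 classes in this order differed by less than the larger of their SDs, and so did B cell-like and T cell-like cells. The lowest library of each of these 4 classes (13859 in endothelial-like cells) stood above the highest library of any lymphoid class (13418 in B cell-like cells). For endothelial-like cells this margin was within counting error. The Poisson intervals were 13344 to 14389 (29 cells, Lox atherosclerotic) and, in B cell-like cells, 12868 to 13987 (26 cells, tKO-labelled atherosclerotic). Fibroblast RNA was not taken off these sums. Within each library endothelial-like cells stood above B cell-like cells, at 13859 against 8935 in the Lox atherosclerotic one. The order of the heat shock genes was another: 6479 ± 3591 in endothelial-like, 6085 ± 1706 in smooth muscle-like and 4410.2 ± 1117 in thymocyte-like cells, then 3677 ± 929 in macrophage-like, 3203 ± 493 in T cell-like, 2999 ± 757 in fibroblast-like and 2966 ± 578 in B cell-like cells. Here every pair of neighbours differed by less than the larger of their SDs. Thymocyte-like cells, which came last for the early genes, stood in the middle for the heat shock genes by these summed CPM. Sums weight a cell by its UMIs. The median thymocyte-like cell held 39.4, 24.7, 24.6 and 34.9 heat shock UMIs per 10000, against 42.7, 26.3, 24.6 and 31.2 in macrophage-like cells. Fibroblast-like cells had 35.5, 24.4, 23.4 and 24.5. With thymocyte-like cells thinned to 2000 UMIs, their heat shock sum rose with the total UMIs of the cell (Spearman's rho 0.35 to 0.54 over libraries).

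**Figure D1:**
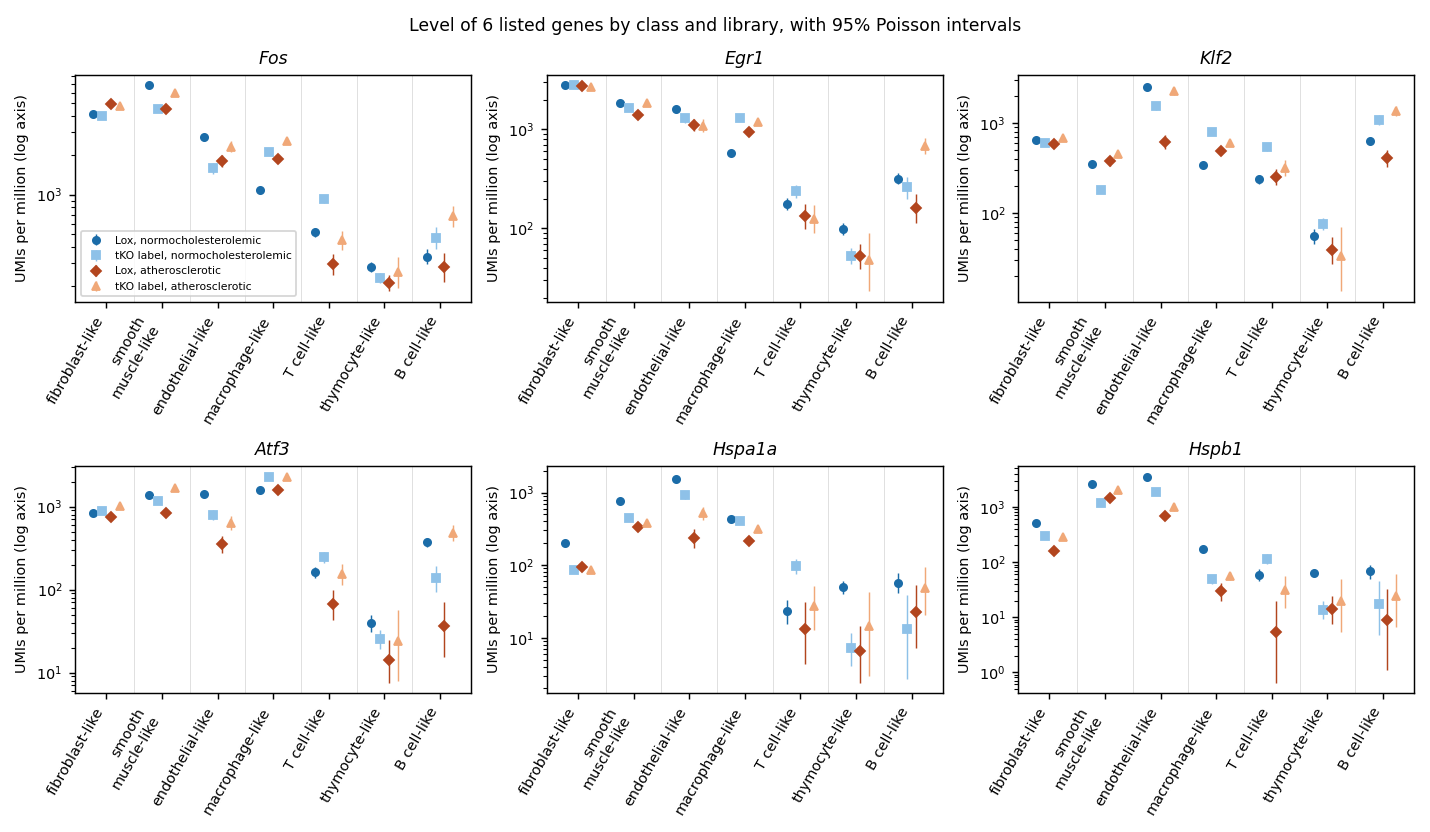
CPM (log axis) of 6 of the genes in 7 cell classes, 1 point per library with its 95% Poisson interval. Fos and Egr1 were high in fibroblast-like and smooth muscle-like cells and low in lymphoid classes, Klf2 was highest in endothelial-like cells in 4 of 4 libraries, Atf3 was highest in macrophage-like cells, and Hspa1a and Hspb1 were high in smooth muscle-like and endothelial-like cells.

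Among the bZIP factors, Fos, the partner of the Jun proteins in AP-1, stood at 4163, 3963, 4911 and 4752 CPM in fibroblast-like and at 6859, 4530.5, 4524 and 6025 in smooth muscle-like cells. The ranges of both classes overlapped, and the difference did not pass the test (log2 fold change 0.29 ± 0.23 SE, adjusted p = 0.322). Fos was lower in macrophage-like cells, at 1094, 2133, 1869 and 2578, and in endothelial-like cells, at 2743, 1592, 1817 and 2326, with neither class overlapping fibroblast-like cells. In thymocyte-like cells it stood at 280.4, 229.8, 211 and 257. Jun, the main partner of Fos, was at 2260.5, 2409.9, 2747 and 2483 in fibroblast-like, 2614, 2206, 2309 and 2917 in endothelial-like and 951, 2459, 1912 and 2397 in macrophage-like cells. These ranges overlapped, and the macrophage-like cells of both Lox libraries stood below all values of the other two classes. Junb, an AP-1 subunit that can oppose Jun, stood at 3517, 3337, 2793 and 3240.5 in fibroblast-like cells and, overlapping them, at 3936, 2679.7, 3215 and 2825 in T cell-like cells. Jund, the AP-1 subunit that is expressed in resting cells, ranged from 586 in thymocyte-like to 3344 in endothelial-like cells. Atf3, a stress-induced repressor, was the highest of the 7 classes in macrophage-like cells, at 1582, 2262, 1584 and 2269, against 833, 882, 757 and 1012 in fibroblast-like cells, and the 2 ranges were apart. Fosl2 was the one bZIP factor that passed the test as higher in T cell-like than in fibroblast-like cells, at 307, 219, 326 and 229.8 against 134, 139, 85 and 109.6. Fosl1 stayed at or below 10.1 CPM in every library of these 7 classes, did not pass the low-count filter and was not tested.

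Egr1, a zinc finger factor induced by growth factors, varied least of the 33 genes over the fibroblast-like libraries, at 2776, 2795, 2732 and 2685. It stood at 1867, 1639, 1391 and 1852 in smooth muscle-like cells and 579, 1292, 936 and 1182 in macrophage-like cells, both wholly below fibroblast-like cells. Klf4, a factor that marks phenotype changes of vascular cells, was at 1082, 1492, 1449.9 and 1200.1 in fibroblast-like cells and 194, 185, 389 and 335 in smooth muscle-like cells. Klf2, the shear-induced endothelial factor, was at 2479.7, 1547, 619 and 2242 in endothelial-like and 648, 599, 590.3 and 675 in fibroblast-like cells. The Lox atherosclerotic library held the low value, from 29 endothelial-like cells, and the ranges of the 2 classes overlapped there. Klf6, a factor of injury responses, was highest in macrophage-like cells, at 1025, 1302, 1164 and 1164, and did not overlap any other class. Nr4a1, an orphan nuclear receptor induced by antigen receptor signals in lymphocytes, was the highest of the 7 classes in B cell-like cells in 3 of 4 libraries, at 814, 860.3, 770.5 and 534, against 534, 675, 408 and 539 in fibroblast-like cells. Egr3 and Myc were highest in B cell-like cells in 4 of 4 libraries. Egr3 stood there at 120.5, 145, 356 and 252, against at most 59.4 in fibroblast-like cells, and Myc at 154, 167, 207 and 330.2, against at most 115. Egr2 stayed at or below 84.9 and Nr4a2 at or below 201 in all 7 classes.

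Of the feedback and other early genes, Ier3, which acts on ERK and NF-kB signalling, was highest in macrophage-like cells, at 1574, 1965, 1145 and 1334, against 816, 672, 466 and 681 in fibroblast-like cells. Ier5 showed the same order, at 503, 872, 563 and 728 and 222, 180.0, 134 and 171. Neither pair of ranges overlapped. Zfp36 was at 1332, 1486, 1082 and 1087 in macrophage-like and 1072, 951, 844 and 896 in fibroblast-like cells, and it fell to 249, 189, 102 and 162 in T cell-like cells. Btg2, an antiproliferative gene, was at 1363, 1128, 1050.4 and 1152 in smooth muscle-like cells and 604, 1137, 556 and 603 in fibroblast-like cells, where the tKO-labelled normocholesterolemic library stood alone. Dusp1 and Socs3 were at 829, 639.6, 896 and 729.8 and 789, 643, 693 and 632 in fibroblast-like cells. Ier2 ranged from 191 in thymocyte-like to 1078 in endothelial-like cells.

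Hspa1a stood at 775, 452, 332 and 378 CPM in smooth muscle-like and 1548, 918, 233 and 518 in endothelial-like cells, against 205, 85.9, 95.6 and 84.5 in fibroblast-like cells. Both vessel wall classes lay wholly above fibroblast-like cells, and in both the Lox normocholesterolemic library was the highest. Hspa1b followed the same order, at 721, 386, 329 and 408, 1206, 768, 482 and 325 and 221, 110.0, 127 and 104. Hspb1 was at 2660.4, 1184, 1484 and 2006 in smooth muscle-like and 3431, 1839, 680.0 and 1006 in endothelial-like cells. In fibroblast-like cells it was at 508, 299, 156 and 281 and in macrophage-like cells at 174, 48.8, 29.3 and 56.5, so the 4 classes spread over more than an order of magnitude. Hspa8, the constitutive Hsc70, had its lowest value of the 7 classes, at 1139.5, in fibroblast-like cells and its highest, at 3258, in endothelial-like cells. Hsp90aa1, the inducible Hsp90, was highest in thymocyte-like cells in 4 of 4 libraries, at 1793, 1328, 927 and 1452, against 675, 557, 555 and 489.5 in fibroblast-like cells. The mitochondrial co-chaperonin Hspe1 was likewise high there, at 692, 453, 353 and 697, against 328, 246, 237 and 245. Hsph1, an Hsp110 exchange factor for Hsp70, stood at 193, 105, 113 and 192 in smooth muscle-like and 72.7, 41.6, 43 and 59.6 in fibroblast-like cells, and the Hsp40 co-chaperone Dnajb1 at 168, 95.6, 57.1 and 125 and 263, 177, 103 and 129.

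Fibroblast RNA in the other classes was gauged with Dcn, a fibroblast transcript. Dcn stood at 0.564% to 1.16% of its fibroblast-like level in smooth muscle-like, 0.908% to 2.29% in macrophage-like, 0.75% to 1.52% in T cell-like, 0.481% to 1.28% in thymocyte-like, 0.742% to 1.44% in B cell-like and 4.5% to 16.4% in endothelial-like cells. The last 2 classes had like median depths, 4930 and 4845.5 UMIs a cell. Free RNA, mixed cells and Dcn made by the class itself were not told apart. All 8 fibroblast markers were above 0 in every one of these classes, with 281 to 1643 CPM summed against 26430 in fibroblast-like cells. If a class held each gene in its fibroblast ratio to Dcn, that would make up 0.612% to 0.704% of its Fos in smooth muscle-like, 2.24% to 8.73% in macrophage-like, 3.83% to 12.5% in T cell-like, 11.2% to 19% in thymocyte-like and 11.2% to 33.6% in endothelial-like cells. For Egr1 in thymocyte-like cells it would be 25% to 52.8%. For Hspa1a and Hspb1 in endothelial-like cells it would be 0.421% to 2.68% and 0.732% to 4.59%. In endothelial-like cells Dcn was highest in the 22 cells of the tKO-labelled atherosclerotic library. Median mitochondrial shares were 1.69% to 1.84% in fibroblast-like, 3.16% to 4% in smooth muscle-like and 1.93% to 3.92% in endothelial-like cells, and their part in the class differences was tested only through a limit of 10%.

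In smooth muscle-like cells, early genes were mostly lower and heat shock genes mostly higher than in fibroblast-like cells. Of the 32 genes tested, 7 were higher and 15 lower, in a comparison that called 21.7% of all genes higher and 26.1% lower. Of the 8 heat shock genes, 6 rose (Hspa1a, Hspa1b, Hspb1, Hsph1, Hsp90aa1 and Hspa8), and Dnajb1 fell. Hspb1 had the largest difference (log2 fold change 2.70 ± 0.31 SE, adjusted p = 1.64e-08), higher in 4 of 4 libraries. Hspa1a followed (log2 fold change 2.04 ± 0.32 SE, adjusted p = 2.9e-06). Of the 24 early genes tested, Btg2 alone rose (log2 fold change 0.77 ± 0.18 SE, adjusted p = 0.000542, higher in 3 of 4 libraries) and 14 fell. The lowest were Myc (log2 fold change -2.45 ± 0.27 SE, adjusted p = 4.59e-09) and Klf4 (log2 fold change -2.28 ± 0.23 SE, adjusted p = 1.51e-09), both in 4 of 4 libraries. The median log2 fold change was 1.0 over heat shock genes and -0.71 over early genes, against -0.06 over all genes tested. Without the tKO-labelled normocholesterolemic library the calls of Dnajb1, Egr2, Ier3 and Klf2 were lost (adjusted p = 0.095, 0.269, 0.266 and 0.0553). Ier3 was also lost without either Lox library (adjusted p = 0.12 and 0.0565), and Jun without the Lox atherosclerotic one (adjusted p = 0.102).

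Endothelial-like cells, compared with the same fibroblast-like sums, had 5 genes higher and 11 lower of 32, where 14.8% of all genes were higher and 18.7% lower. The 5 were Hspa1a (log2 fold change 2.44 ± 0.34 SE, adjusted p = 7.64e-07), Hspb1 (log2 fold change 2.15 ± 0.31 SE, adjusted p = 1.76e-06), Hspa1b (log2 fold change 2.05 ± 0.35 SE, adjusted p = 2.29e-05), Klf2 (log2 fold change 1.18 ± 0.30 SE, adjusted p = 0.00266) and Hsph1 (log2 fold change 0.72 ± 0.23 SE, adjusted p = 0.0168), each higher in 4 of 4 libraries. No heat shock gene fell. Fos, Fosb, Fosl2, Junb and Maff fell among the bZIP factors, Egr1, Egr2, Klf4, Nr4a1 and Myc among the other factors, and Socs3 alone among the feedback genes. Egr2, at 28.0, 11.2, 0 and 0 CPM, and Myc, at a mean of 14.4 CPM, were near the floor in these few cells. Nr4a1 changed by -1.97 and Egr1 by -1.33 (log2, adjusted p = 5.5e-08 and 5.34e-05). Jun and Jund did not pass the test, with log2 fold changes of -0.20 and -0.03. The fit uses TMM size factors, and its values in this class can lie below the log2 differences of plain CPM. Junb had -0.56 in the fit, but -0.54 to -0.05 by CPM within libraries. Egr1 had -1.33 in the fit, but -1.30 to -0.80 by CPM. Both were lower by CPM in every library. The sums rest on 162 cells, and the count of higher genes was 3 without the Lox normocholesterolemic library, where Klf2 and Hsph1 were lost (adjusted p = 0.0518 and 0.121). Without the tKO-labelled normocholesterolemic library, Hsph1, Maff and Egr2 were lost (adjusted p = 0.0592, 0.0711 and 0.151). Egr2 was lost without either atherosclerotic library as well (adjusted p = 0.0586 and 0.101).

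Macrophage-like cells shared the fibroblast-like sums too, and there 12 genes were higher and 8 lower, in a comparison that called 33.7% of all genes higher and 33% lower. With RLE size factors in place of TMM the split was 10 higher and 11 lower, and with DESeq2 it was 9 and 9. The largest rises were Ier5 (log2 fold change 2.04 ± 0.15 SE, adjusted p = 2.61e-13), Klf6 (log2 fold change 1.86 ± 0.21 SE, adjusted p = 4.15e-09), Hspa1a (log2 fold change 1.71 ± 0.32 SE, adjusted p = 2.06e-05), Ier3 (log2 fold change 1.34 ± 0.19 SE, adjusted p = 3.42e-07) and Atf3 (log2 fold change 1.25 ± 0.29 SE, adjusted p = 0.000342), each in 4 of 4 libraries. Myc (-2.59), Hspb1 (-2.0), Egr1 (-1.36), Fos (-1.12), Nr4a1 (-0.96), Socs3, Ier2 and Klf4 fell (log2 fold changes in parentheses). Neither the factors nor the feedback genes moved as a group. Fos and Egr1 lay below fibroblast-like cells, while Atf3, Junb, Fosl2, Egr2 and Klf6 lay above, and Jun and Fosb did not pass the test. Of the feedback genes, Zfp36, Ier3, Ier5 and Btg2 lay above, Socs3 and Ier2 below, and Dusp1 did not pass. The counts of 12 and 8, of 32 tested, are near the shares of all genes. Junb lost its call without any one library (adjusted p = 0.0885 to 0.202). Btg2 and Egr2 lost theirs without either atherosclerotic library (adjusted p = 0.1 to 0.104 for Btg2 and 0.081 to 0.162 for Egr2). Hspa1b lost its call without either tKO-labelled library (adjusted p = 0.181 and 0.0856), and Klf4 and Zfp36 without the tKO-labelled normocholesterolemic one (adjusted p = 0.0614 and 0.075).

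T cell-like cells, against the same fibroblast-like sums, had 4 genes higher and 22 lower, where 29.7% of all genes were higher and 34.6% lower. Egr1 had the largest drop (log2 fold change -4.05 ± 0.27 SE, adjusted p = 1.17e-13). Klf4 (-3.22), Fos (-3.08), Ier3 (-3.05), Jun (-3.04) and Socs3 (-3.0) fell by like amounts on the log2 scale. Egr2 fell too (log2 fold change -3.37 ± 0.63 SE), but it was near the floor in these cells, at 5.8, 2.67, 2.67 and 0 CPM. The genes that rose were Fosl2 (log2 fold change 1.15 ± 0.20 SE, adjusted p = 7.3e-06), Hsph1 (log2 fold change 0.74 ± 0.20 SE, adjusted p = 0.00222), Hspe1 (log2 fold change 0.68 ± 0.16 SE, adjusted p = 0.000505) and Hspa8 (log2 fold change 0.43 ± 0.12 SE, adjusted p = 0.00341), each in 4 of 4 libraries. Junb, Klf6, Btg2, Ier5, Nr4a2 and Hsp90aa1 did not pass the test. The inducible Hspa1a fell (log2 fold change -1.55 ± 0.41 SE, adjusted p = 0.00156), although it was higher in the tKO-labelled normocholesterolemic library. The calls of Dnajb1, Egr3 and Hspa1b were lost without the Lox normocholesterolemic library (adjusted p = 0.239, 0.0864 and 0.112), with log2 fold changes of -0.31 for Dnajb1 and -0.67 for Hspa1b there. Those of Egr3, Hspa8 and Hsph1 were lost without the tKO-labelled normocholesterolemic library (adjusted p = 0.0664, 0.0646 and 0.155). Hspa1b was lost without the Lox atherosclerotic library too (adjusted p = 0.0637).

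**Figure D2:**
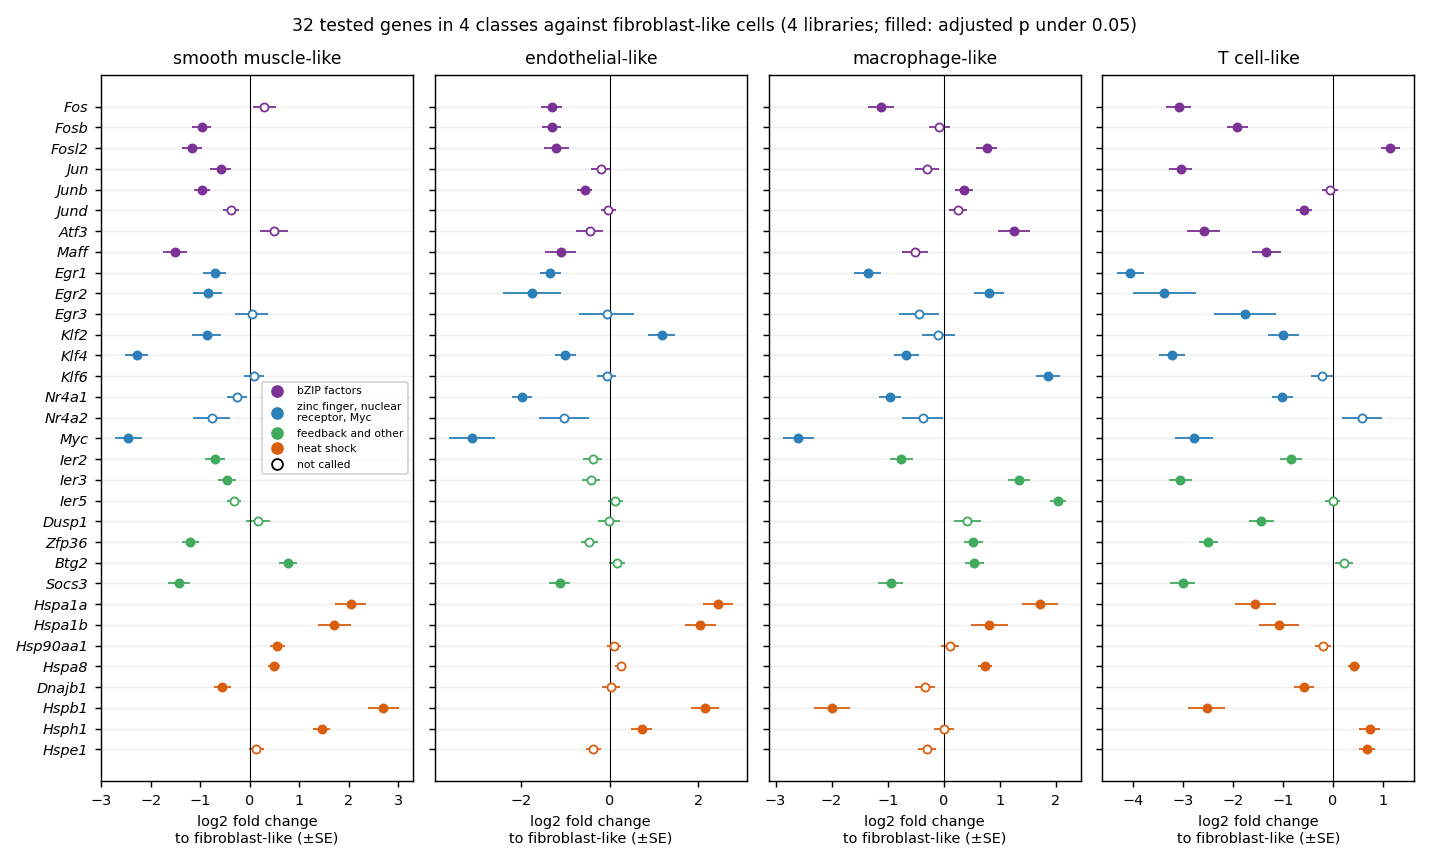
Log2 fold change of 32 genes in 4 cell classes against fibroblast-like cells, from 1 fit over 4 libraries, with bars of 1 SE, colours for the role of a gene and filled points for adjusted p under 0.05. In smooth muscle-like and endothelial-like cells the heat shock genes Hspa1a, Hspa1b and Hspb1 lie to the right and most early genes to the left, and in T cell-like cells Egr1 lies farthest to the left at -4.05.

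Other genes of the same pathways were described with 2 further lists, to be read against the shares of all genes given above for each comparison. Of 28 other early and stress genes, 26 were tested, and 8 were higher and 12 lower in smooth muscle-like, 5 and 12 in endothelial-like, 14 and 10 in macrophage-like and 6 and 12 in T cell-like cells. Cebpd, an acute-phase factor, led the falls in smooth muscle-like cells (log2 fold change -2.67 ± 0.22 SE, adjusted p = 1.6e-11) and Dusp2, a phosphatase of activated leukocytes, the rises in macrophage-like and T cell-like cells (log2 fold change 4.71 and 5.99), with 4.30 in endothelial-like cells. Of 24 other heat shock genes, all tested, 11 were higher and 6 lower in smooth muscle-like, 2 and 10 in endothelial-like, 7 and 8 in macrophage-like and 10 and 10 in T cell-like cells. Dnajb4, an Hsp40 co-chaperone, rose in smooth muscle-like cells (log2 fold change 1.27 ± 0.18 SE, adjusted p = 5.95e-07), and the small heat shock gene Hspb8 fell in endothelial-like cells (log2 fold change -3.75 ± 0.43 SE, adjusted p = 3.25e-08). Serpinh1, the collagen chaperone Hsp47 and abundant in fibroblast-like cells, had a log2 fold change of -5.12 in macrophage-like and -5.28 in T cell-like cells.

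The heat shock genes were also set side by side between conditions. Summed over the 8 genes, fibroblast-like cells held 4120.3, 2707, 2455 and 2712 CPM, smooth muscle-like cells 8377, 4723, 4849.8 and 6389, macrophage-like cells 4946, 3336, 2749 and 3677 and endothelial-like cells 11511, 6506, 3425 and 4472. T cell-like cells held 3566, 3510.3, 2495 and 3242, thymocyte-like cells 5868, 3904, 3259.9 and 4609 and B cell-like cells 3692, 2739, 2329 and 3104. The Lox normocholesterolemic library was the highest of the 4 in all 7 classes and the Lox atherosclerotic library the lowest in 6 of 7, smooth muscle-like cells being the exception. Taken gene by gene, heat shock genes were highest in the Lox normocholesterolemic library in 44 of 56 gene-class pairs with at least 40 UMIs and lowest in the Lox atherosclerotic library in 40 of 56. Early genes were spread more widely: highest in the same library in 57 of 161 pairs, and lowest in the Lox atherosclerotic library in 71 of 161. These pairs hold the same genes in cells of the same 4 libraries, so they are not independent. The share over all genes is not given, so these counts do not show whether the order is particular to the listed genes. By total UMIs the Lox normocholesterolemic library was the largest, with 98754487, and the Lox atherosclerotic library the smallest, with 12276546. Per kept cell the order was another, with medians of 12133, 14152.5, 10963 and 9200.5 UMIs. The part of depth was not tested. With cells under 2000 UMIs left out, an alternative chosen after seeing the data, heat shock genes were highest in the former in 45 of 56 pairs.

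**Figure D3:**
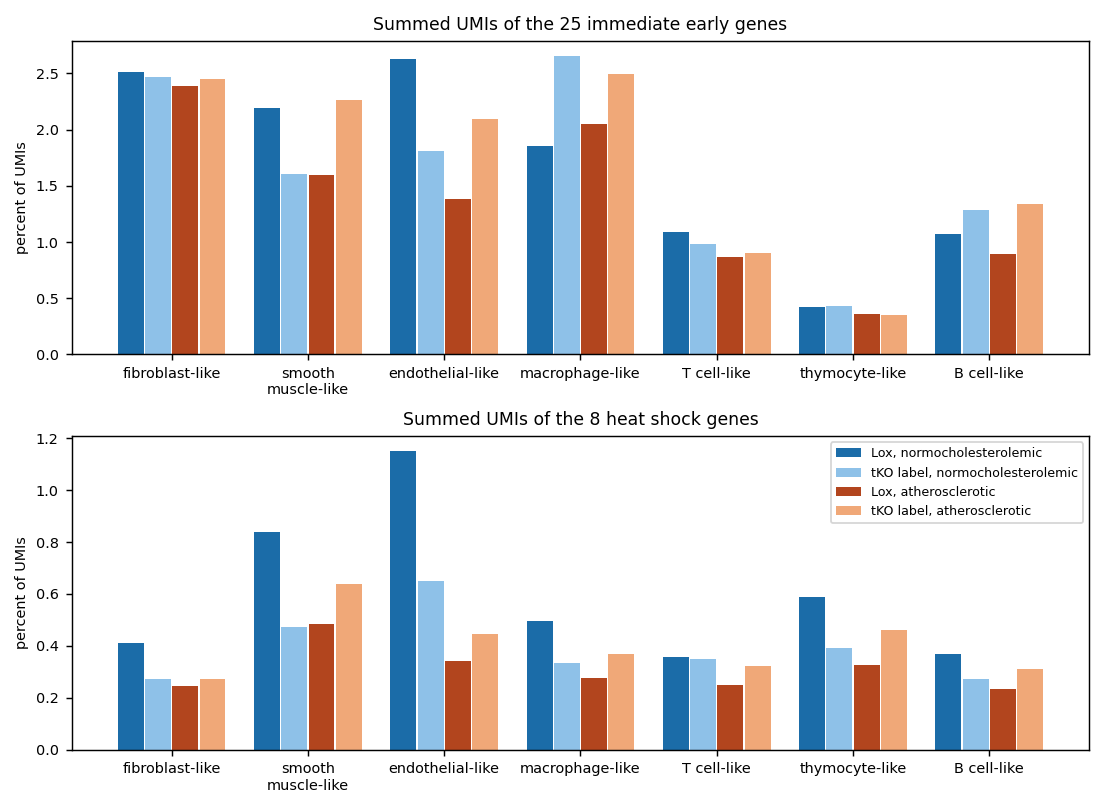
Percent of all UMIs taken by the 25 early genes (top) and the 8 heat shock genes (bottom) in 7 cell classes, 1 bar per library. The heat shock bar of the Lox normocholesterolemic library is the tallest in each of the 7 classes, whereas the tallest early bar belongs to different libraries in different classes.

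In the diet pair of the Lox libraries, all 8 heat shock genes were lower in the atherosclerotic library in fibroblast-like, smooth muscle-like and macrophage-like cells, with every interval below 0. Such an interval was found for 18%, 6.98% and 9.08% of all genes with at least 20 UMIs in those classes. Of the 25 early genes, 21, 15 and 6 had an interval below 0 in the 3 classes, and 4, 2 and 15 had one above 0. Median log2 ratios of the early genes were -0.35, -0.42 and 0.18, against 0.04, 0.11 and 0.14 over all genes. In macrophage-like cells the early genes thus lay near all genes, whose share above 0 is not given there. Hspb1 changed by -1.70 (95% interval -1.79 to -1.61) on the log2 scale in fibroblast-like cells, -0.84 (95% interval -0.93 to -0.76) in smooth muscle-like and -2.57 (95% interval -3.17 to -2.03) in macrophage-like cells. Hspa1a changed by -1.10, -1.23 and -0.98, and the constitutive Hspa8 by -0.70, -0.62 and -0.72. In the tKO-labelled diet pair the median over the 8 genes was -0.05, 0.41 and 0.21 in the 3 classes, against -0.78, -0.81 and -1.02 in the Lox pair. There, 3 genes had an interval below 0 and 2 above in fibroblast-like cells, 1 and 5 in smooth muscle-like and 3 and 2 in macrophage-like cells. Over all genes the shares below and above 0 were 23.8% and 16.7%, 10.9% and 10.3%, and 17.8% and 11.1%. These shares include genes with few UMIs, whose intervals are wide. The difference between the 2 diet pairs was not tested.

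The genotype label pair of the normocholesterolemic libraries shares the Lox library with the Lox diet pair, so the 2 comparisons are not independent. There, too, all 8 heat shock genes were lower in the tKO-labelled library in fibroblast-like and smooth muscle-like cells with every interval below 0, and 7 of 8 in macrophage-like cells. Intervals below 0 were found for 23.3%, 11.7% and 10.9% of all genes. Of the 25 early genes, 13, 23 and 6 had an interval below 0 in these classes, and 9, 1 and 18 had one above 0. The share of all genes above 0 is not given for this pair. Median log2 ratios of the early genes were -0.07, -0.60 and 0.34 in the 3 classes, against 0.04, 0.09 and 0.22 over all genes. In macrophage-like cells all genes thus leaned upward too. Hspa1a changed by -1.25 (95% interval -1.32 to -1.19) in fibroblast-like, -0.78 (95% interval -0.85 to -0.71) in smooth muscle-like and -0.07 (95% interval -0.17 to 0.03) in macrophage-like cells. In the atherosclerotic label pair, which does not use that library, heat shock intervals above 0 outnumbered those below 0: 4 against 3 in fibroblast-like, 7 against 0 in smooth muscle-like and 7 against 0 in macrophage-like cells. Over all genes of this pair, 11% lay above and 14.6% below 0 in fibroblast-like, 5.37% and 8.74% in smooth muscle-like and 8.52% and 11.6% in macrophage-like cells. Early genes moved alike here, with 16 above and 6 below 0 of 25 in fibroblast-like cells. In smooth muscle-like cells it was 20 and 1 of 24, and in macrophage-like cells 13 and 4 of 24. The digestion or day of a pool and its diet or genotype label cannot be told apart with 1 library per condition.

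**Figure D4:**
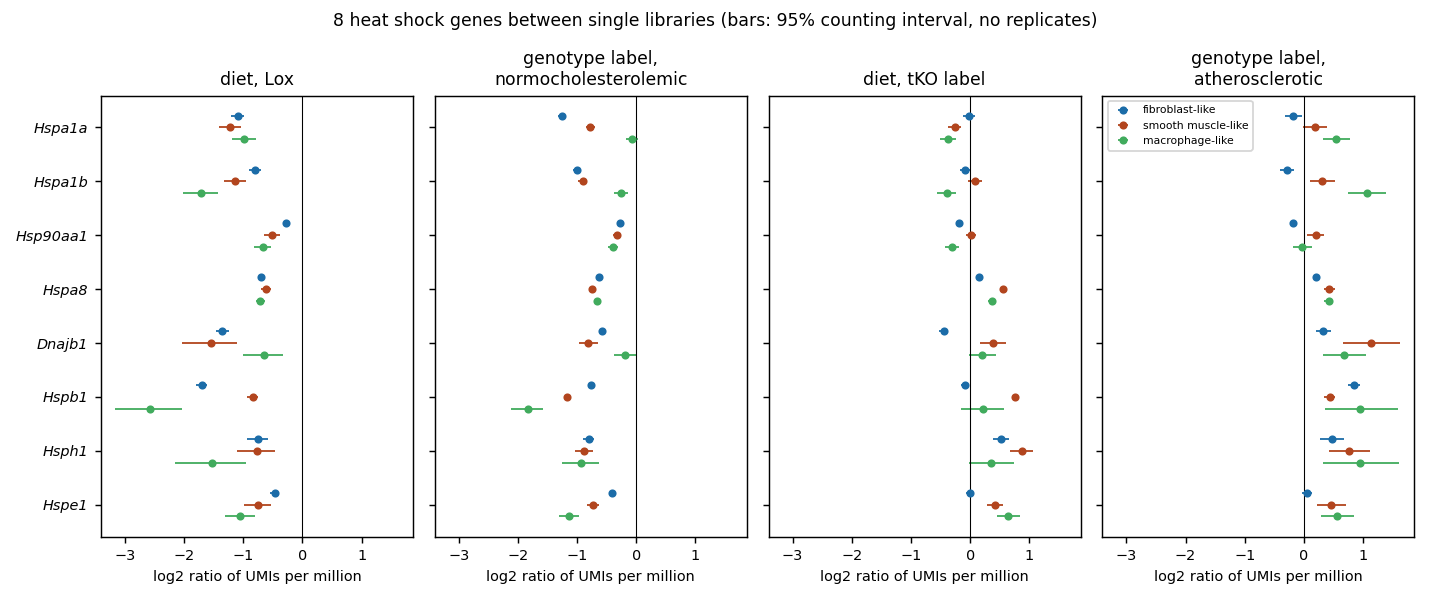
Log2 ratio of CPM of the 8 heat shock genes in 4 pairs of libraries (atherosclerotic to normocholesterolemic for diet, tKO-labelled to Lox for the label), in 3 cell classes, with bars for the 95% counting interval. In the 2 pairs on the left, which both divide by the Lox normocholesterolemic library, all points lie below 0, and in the 2 pairs on the right they lie on both sides.

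Counted by an absolute log2 ratio of at least 1, the Lox diet pair had 4 of the 33 genes past the fold in fibroblast-like cells (11.7% of all genes), namely Fosl1, Hspa1a, Dnajb1 and Hspb1, all lower. In smooth muscle-like cells 6 were past it (16%), with Fosl1, Ier2, Hspa1a, Hspa1b and Dnajb1 lower and Klf4 higher. Fosl1 was near the floor there, at 2.36, 0.493, 0 and 3.74 CPM. In macrophage-like cells 6 were past it (14.5%), with Hspa1b, Hspb1, Hsph1 and Hspe1 lower and Jun and Egr3 higher. These shares are near the background. In the tKO-labelled diet pair the numbers were 2 (7.53%), 7 (5%) and 0 (6.58%), the 2 in fibroblast-like cells being Egr3 and Nr4a2, both lower. The 7 in smooth muscle-like cells were all higher in the atherosclerotic library: Junb, Egr3, Ier3, Klf2, Nr4a2, Myc and Maff, of 32 measured.

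The smooth muscle-like Junb stood at 1779, 1158, 1253 and 2434 CPM and Ier3 at 535, 341, 327 and 719. In both, the tKO-labelled atherosclerotic library was the highest, and the tKO-labelled normocholesterolemic and Lox atherosclerotic ones lay close together. Intervals of 23 of the 24 measured early genes lay above 0 in the tKO-labelled diet pair, where 10.3% of all genes did. In the Lox diet pair 15 of 25 lay below 0 and 2 above, against 6.98% and 15.5% of all genes. The median over early genes was 0.81 in the tKO-labelled and -0.42 in the Lox diet pair, with -0.02 and 0.11 over all genes. The Lox atherosclerotic sums rest on 66 smooth muscle-like cells.

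In the normocholesterolemic label pair 4 genes passed the fold in fibroblast-like (8.11%), 5 in smooth muscle-like (5.57%) and 9 in macrophage-like cells (10.1%). The macrophage-like genes were higher for Jun, Egr1, Ier2, Klf2, Nr4a1 and Btg2 and lower for Fosl1, Hspb1 and Hspe1 in the tKO-labelled library. Jun stood at 951, 2459, 1912 and 2397 and Egr1 at 579, 1292, 936 and 1182 in macrophage-like cells. The Lox normocholesterolemic library was the lowest of the 4 for both, while its heat shock sum was the highest. Dnajb1 alone, at 134 there, was not its highest, with 135 in the tKO-labelled atherosclerotic library. In fibroblast-like cells Hspa1a and Hspa1b were lower and Egr3 and Nr4a2 higher in the tKO-labelled library, and in smooth muscle-like cells Fosl1, Zfp36, Socs3, Hspb1 and Myc were lower. In the atherosclerotic label pair the numbers were 1 (4.02%), 5 (6.96%) and 1 (7.79%), and all 7 were higher in the tKO-labelled library. They were Fosl1 in fibroblast-like, Ier2, Ier3, Atf3, Dnajb1 and Myc in smooth muscle-like and Hspa1b in macrophage-like cells. Wherever Fosl1 is named in these pairs it was near the floor, at or below 10.1 CPM.

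Single cells of a class differed widely in the early genes. In fibroblast-like cells of the Lox normocholesterolemic library the 10th, 50th and 90th percentiles over cells were 106, 236 and 398 UMIs per 10000. In smooth muscle-like cells of that library they were 55.8, 215 and 389.7, and in those of the Lox atherosclerotic library 25.9, 155 and 352. Endothelial-like cells of the Lox normocholesterolemic library reached 62.3, 209 and 522, and thymocyte-like cells stayed at 23.8, 45.3 and 90.9. With each cell thinned to 2000 UMIs and counting error taken off, the coefficient of variation over cells was 43.8% to 52.4% over the 4 libraries in fibroblast-like, 56.4% to 73.2% in smooth muscle-like, 47.4% to 70.7% in macrophage-like and 58.5% to 101% in endothelial-like cells. For the heat shock genes it was 31.3% to 55.9%, 57.6% to 74.7%, 43.4% to 92.5% and 51.8% to 109%. Fibroblast-like cells were thus the most even of these 4 classes in their early genes, with a range below that of smooth muscle-like and endothelial-like cells. Thinning left out 501 of 8048 fibroblast-like, 62 of 1479 smooth muscle-like, 81 of 1330 macrophage-like and 19 of 162 endothelial-like cells.

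**Figure D5:**
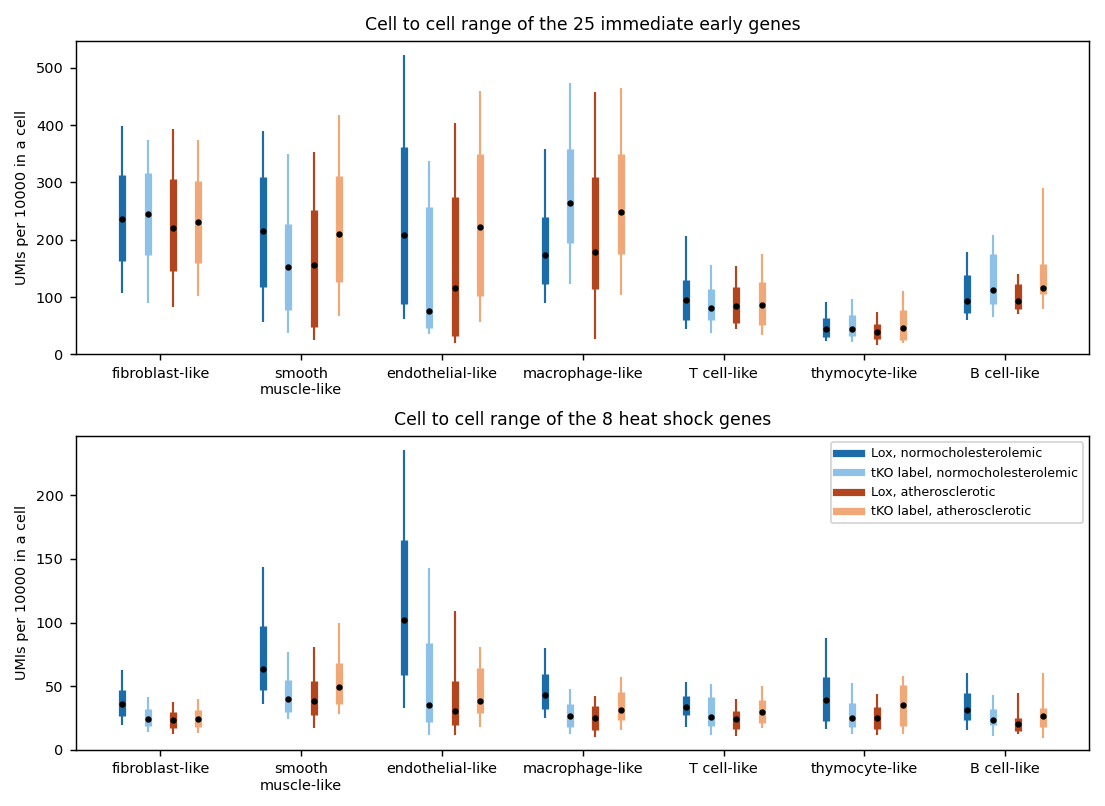
UMIs per 10000 in single cells, summed over the 25 early genes (top) and the 8 heat shock genes (bottom), by class and library: thin lines run from the 10th to the 90th percentile, thick bars from the 25th to the 75th, and black points are medians. In endothelial-like and smooth muscle-like cells the lines are long against their medians, and in the Lox normocholesterolemic library the heat shock medians stand highest in 7 of 7 classes.

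Nearly all fibroblast-like cells carried early transcripts. Thinned to 2000 UMIs, 91.5% to 96.1% of them had a Fos UMI (97.5% to 98.1% unthinned) and 92.6% to 93.2% an Egr1 UMI, as a range over libraries. In T cell-like and thymocyte-like cells the thinned shares were 39.6% to 55% and 27.6% to 40% for Fos and 18.8% to 28.3% and 13.8% to 30% for Egr1. Hspa1a, whose level was lower in fibroblast-like cells than that of Fos, had a UMI in 11.9% to 24.8% of them. It had a UMI in 33.3% to 57.8% of smooth muscle-like and 34.8% to 66.1% of endothelial-like cells, against at most 5.15% of thymocyte-like cells in any library. Such shares depend on the level of a gene as well as on its spread over cells. Hspa8 was found in 86.3% to 93.7% of fibroblast-like and 88.5% to 97.9% of thymocyte-like cells.

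Within cells of 1 class and library, Fos and Jun rose and fell together in the stromal and macrophage classes. Spearman's rho between their thinned UMIs ran from 0.45 to 0.60 over the 4 libraries in fibroblast-like, 0.31 to 0.57 in smooth muscle-like and 0.48 to 0.66 in macrophage-like cells, and from 0.04 to 0.48 in thymocyte-like cells, where both genes are low. Between Fos and Egr1 it ran from 0.28 to 0.43, 0.42 to 0.65 and 0.42 to 0.61 in the 3 classes. Between the early sum and the heat shock sum it ran from 0.10 to 0.21 in fibroblast-like, -0.21 to 0.23 in smooth muscle-like and 0.24 to 0.61 in endothelial-like cells. With the total UMIs of a cell, the thinned early sum had a rho of 0.05 to 0.10 in fibroblast-like, -0.19 to 0.01 in smooth muscle-like and -0.43 to -0.20 in macrophage-like cells. The part of depth in the gene pairs was not tested. The cells of a library share its digestion and free RNA, so these values describe the libraries. Across the 28 sums of 7 classes and 4 libraries, the gene most like Fos was Egr1 (Pearson's r = 0.95 on log2 values), the gene most like Hspa1a was Hspa1b (r = 0.93), and Dnajb1 had no close partner (r = 0.42 with Ier2). Those 28 sums share libraries and classes.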

How the data were processed

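The authors made the deposited UMI counts with Cell Ranger 6.1.2 on the mm10 genome from Chromium 3′ v3.1 libraries. The deposited values are raw counts per gene and barcode, without normalization. Following the study's limits, barcodes under 200 or over 6000 genes, or over 15% mitochondrial UMIs, were removed. No authors' cell annotation was used. The agent injected in the atherosclerotic groups is not reported here. Cells were given a class when at least 3 of its 8 markers had a UMI and led the next class by 2. This rule was set after the data were seen. T cell-like and thymocyte-like cells competed with the other classes as a joint lineage, by the larger of their marker counts. They were then split by thymocyte markers with a UMI. Cells with more than 3 were called thymocyte-like, those with at most 2 T cell-like, and those with 3 got no class. Scrublet (scanpy 1.11.5) marked 2.41%, 2.15%, 0.98% and 1.85% of cells as doublets, and these were left in except as an alternative.

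The 33 genes and the pathway lists were chosen with earlier results of these data known. All 33 were named. From each pathway list, names came from the 3 genes with the largest absolute log2 fold change among those past the threshold in a class comparison. UMIs were summed per class and library and tested with edgeR 4.0.16 (R 4.3.3; TMM, filterByExpr, glmQLFit and glmQLFTest, library as a block, 7 classes in 1 fit, adjusted p under 0.05). The test assumes that the 4 pools, which differ in diet and genotype label, replicate a class difference. Conditions were compared as ratios of CPM with exact binomial 95% intervals, for genes with at least 20 UMIs, with no test. DESeq2 1.42.0 and the other alternatives are given in the closing section. Intervals cover counting error only. Promoters came from RefSeq and gene positions from GENCODE (GRCm38).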

Additional observations from a re-analysis of the deposited data

Results flagged for a closer look

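Of 175 sums and gene levels with 4 libraries each (at least 400 UMIs per gene and class), 5 (2.86%) had 1 library far from the other 3, with a gap over Dixon's 95% critical share of the whole range. Chance gives about 5% of the values checked, so the flagged share was no larger than chance gives. Of the 5 flagged values, 3 were high in the Lox normocholesterolemic library. In fibroblast-like cells the summed heat shock genes stood at 4120.3 against 2455 to 2712 CPM in the other libraries, Hspa1a at 205 against 84.5 to 95.6 and the co-chaperonin Hspe1 at 328 against 237 to 246. The sum includes both genes, so these 3 values are not separate. The other two were high in the tKO-labelled normocholesterolemic library: Btg2 in fibroblast-like cells, at 1137 against 556 to 604, and Jund in B cell-like cells, at 2669 against 2194 to 2270.0.

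For 4 genes the diet pairs of the 2 genotype labels moved in opposite directions by counting intervals, with 1 library on each side. In smooth muscle-like cells Junb had a log2 ratio of -0.51 in the Lox and 1.07 in the tKO-labelled diet pair, a difference of 1.58. There Ier2 had -1.13 in the Lox and 0.86 in the tKO-labelled diet pair, a difference of 1.99, and Ier3 had -0.71 in the Lox and 1.08 in the tKO-labelled diet pair, a difference of 1.78. In macrophage-like cells Hspe1 had -1.06 in the Lox and 0.64 in the tKO-labelled diet pair, a difference of 1.70. These differences were not tested, since each rests on 4 single libraries.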

How the results depend on the processing

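The class tests compared classes within libraries, with the library as a block. Conditions could not be paired, since each has 1 library and the labels give no replicate numbers. Over 13 alternatives, no called log2 fold change of a listed gene changed direction. Of 1664 values of single genes under an alternative, 1552 kept their side of the threshold, 64 lost it and 48 gained it. With no filter on low counts, 4500 in place of 2955 genes were lower in smooth muscle-like, 3553 in place of 2117 in endothelial-like and 6042 in place of 3738 in macrophage-like cells, and of the listed genes 20 in place of 11 were lower in endothelial-like and 14 in place of 8 in macrophage-like cells. That setting moved the median of all genes by -0.20 to -0.51 on the log2 scale. RLE size factors moved it by -0.11 in macrophage-like and -0.10 in T cell-like cells. Without the library block, 2 in place of 4 listed genes were higher in T cell-like cells. Leaving out each library in turn gave 3 to 5 listed genes higher in endothelial-like cells, 3 without the Lox normocholesterolemic library. The other counts of called genes, the shares of UMIs and the spread over cells at 5000 UMIs stayed within 1.5 times or 1 SD.

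With an absolute log2 ratio of at least 0.5 in place of 1, 84 in place of 25 gene-class values passed in the diet pairs and 79 in place of 25 in the genotype label pairs, and the other alternatives gave 20 to 31 and 22 to 30. The share of all genes past 0.5 is not given, so the larger counts show nothing particular to the listed genes. The order of the libraries, an alternative chosen after seeing the data, had heat shock genes highest in the Lox normocholesterolemic library in 43 to 46 of 56 gene-class pairs under 4 other sets of cells and in 23 of 24 in the 3 large classes. Such pairs are not independent, and the share over all genes is not given. Depth limits endothelial-like values (165934 to 357303 UMIs a library) and any gene under 20 UMIs.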

Other observations

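Some classes did not reach 10 cells in all 4 libraries and were left out of the tests, and their values are given as they are. Neutrophil-like cells held 15326, 8816 and 6682 CPM of early genes in the first 3 libraries (96, 15 and 17 cells), and 1151, 507 and 985 of heat shock genes, below every library of the 7 classes above. Their median mitochondrial share was 0.409% to 0.692%. Monocyte-like cells held 10934 and 10084 of early genes in the Lox normocholesterolemic and Lox atherosclerotic libraries (34 and 18 cells), against 18556 and 20515 in macrophage-like cells of the same libraries. Their heat shock genes stood at 3641 and 2470.4. NK cell-like cells of the Lox normocholesterolemic library (30 cells) held 11811 of early genes, and dendritic-like cells 12234 and 8868 in the 2 Lox libraries (12 and 10 cells). Mesothelial-like cells held 24259 and 22428 in the 2 normocholesterolemic libraries (11 and 16 cells). Dcn stood there at 5915 and 6396 CPM, against 15439 and 13663 in fibroblast-like cells of the same libraries. Fibroblast RNA, mixed cells and Dcn made by the class itself were not told apart.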
